A study of Mus musculus with 14 samples.

Results

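Isolated CTCF sites were 1394 autosomal binding sites that lay more than 100 kb from any other site on both sides. They made up 1.65% of the 84376 autosomal sites and came from 86652 sites in all. A site was the merged interval of CTCF peaks that overlapped by at least 1 bp over 8 peak lists. The members were chosen by peak positions over all 8 lists, measured as the gap between interval ends. Their isolation and the positions of their peaks are therefore descriptions and were not tested. A call in a single list could make a site a member, so the shares called in each library are not independent of this choice. The smaller of the 2 gaps had a median of 142 kb and reached 779 kb, and 9 members had no site on one side up to the chromosome end.

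The data were chromatin immunoprecipitation sequencing (ChIP-seq) of the mouse embryonic stem cell (mESC) line E14Tg2A. WT cells carried unaltered CTCF, and K20R cells carried CTCF in which lysine 20 had been replaced by arginine with CRISPR/Cas9. Day 0 cells were mESCs, grown on inactivated fibroblasts with leukemia inhibitory factor and 2i inhibitors, and day 4 cells were embryoid bodies (EBs), formed in hanging drops without leukemia inhibitory factor. Each of the 4 groups (WT or K20R, day 0 or day 4) had 2 CTCF libraries, and day 4 also had 1 H3K27ac library for each genotype. The labels do not give the number of clones behind each genotype, so genotype and clone cannot be told apart.

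CTCF is a zinc finger protein that binds a long, G-rich DNA motif. It halts cohesin as that complex extrudes chromatin loops, and loop anchors often carry CTCF motifs that point towards each other. Stretches of the genome with few genes are known to hold long neuronal adhesion genes and clusters of sensory receptor genes, and they are poor in GC and rich in repeats.

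A 19-bp motif learned from the strongest WT day 0 peaks had the consensus CGGCCACCAGGGGGCGCTG. The windows below show this motif, in capitals, at isolated sites that the results turn on, with 15 bases on each side. All were read from GRCm38, the same build as mm10, on the strand that carries the G-rich motif. The first 5 windows are from the strongest members called in all 8 libraries. They lie at chr13:71458559-71458607 (+), chr15:67434476-67434524 (-), chr6:138477755-138477803 (+), chr4:61556056-61556104 (+) and chr3:14381661-14381709 (-). A sixth strong member, near Cbln2, is described without its sequence.
near Irx1: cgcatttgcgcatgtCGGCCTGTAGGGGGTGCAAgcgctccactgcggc
near St3gal1: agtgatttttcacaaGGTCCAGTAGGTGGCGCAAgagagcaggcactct
Lmo3 intron: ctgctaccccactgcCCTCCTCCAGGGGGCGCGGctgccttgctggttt
near Mup16: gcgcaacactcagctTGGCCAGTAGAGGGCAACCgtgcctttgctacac
near Slc7a12: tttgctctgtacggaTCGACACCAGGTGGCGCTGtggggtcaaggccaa

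The next windows are from members called in both WT libraries and in neither K20R library of a day. The first 4 had this pattern at day 4 and lie at chr13:80295907-80295955 (-), chr6:32479482-32479530 (+), chr11:28020931-28020979 (+) and chr10:125114498-125114546 (+). The site near Ugt8a had it at day 0 and lies at chr3:126011431-126011479 (+).
near Arrdc3: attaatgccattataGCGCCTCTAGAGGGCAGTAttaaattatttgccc
Plxna4 intron: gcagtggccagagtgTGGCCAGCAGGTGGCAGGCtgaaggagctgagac
near Gm6685: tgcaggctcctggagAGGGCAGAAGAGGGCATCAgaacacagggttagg
near Slc16a7: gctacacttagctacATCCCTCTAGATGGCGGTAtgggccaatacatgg
near Ugt8a: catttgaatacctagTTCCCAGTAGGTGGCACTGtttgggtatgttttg

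The last windows are from the site called in K20R alone at day 4 near Klf6, the Rims2 site with H3K27ac in both genotypes, and 2 of the most isolated sites. They lie at chr13:5694833-5694881 (+), chr15:39217425-39217473 (-), chr4:113448431-113448479 (-) and chr4:112669483-112669531 (-).
near Klf6: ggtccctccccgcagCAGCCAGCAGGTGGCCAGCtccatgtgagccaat
Rims2 intron: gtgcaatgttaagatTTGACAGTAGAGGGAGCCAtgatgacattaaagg
near Skint6: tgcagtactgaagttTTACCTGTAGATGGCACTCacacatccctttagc
near Skint2: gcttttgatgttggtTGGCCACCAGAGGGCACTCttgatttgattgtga

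The libraries differed in how many isolated sites they called. The peak lists held 41360 to 77657 peaks each, each called on its own library, and all CTCF libraries were subsampled to the same number of reads. At day 0, the WT libraries called 1189 and 685 members, and the K20R libraries called 747 and 743. The first WT library therefore stood apart, with both K20R libraries between the 2 WT libraries. At day 4, the WT libraries called 929 and 935 members, and the K20R libraries called 529 and 588. Both K20R libraries of day 4 lay below all other libraries.

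As shares of the 1394 members, the WT mean of day 4 was 66.9% ± 0.304 (SD, n = 2) and the K20R mean was 40.1% ± 2.99 (SD, n = 2). The difference of -26.8 percentage points exceeded the spread between replicates, but its exact permutation p was 0.333 (adjusted p = 0.833 over 5 comparisons), the smallest p that 2 libraries against 2 allow. The calls compared here are also those that put sites in the set. WT libraries only called 523 members and K20R libraries only called 31, so the comparison is not independent of the selection. The lower share in K20R at day 4 was also not confined to isolated sites. Of other autosomal sites, the K20R libraries of day 4 called 47.4% and 54.6%, against 69.8% and 70.2% in WT. At day 0, the WT mean was 67.2% ± 25.6 (SD, n = 2) and the K20R mean was 53.4% ± 0.203 (SD, n = 2). That difference of -13.8 points was smaller than the spread between the WT libraries (exact permutation p = 1). Without the first WT library it changed sign, to 4.30 points, and without the second it was -31.9 points.

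Between days, the WT share differed by -0.359 points (exact permutation p = 1). This value turned to 17.7 points without the first WT library of day 0 and to -18.4 points without the second. The K20R share was 13.4 points lower at day 4 than at day 0 (difference of -13.4 points, exact permutation p = 0.333, adjusted p = 0.833). Subtracting the genotype effect of day 0 from that of day 4 gave -13.0 points, with an exact permutation p of 0.778 over 36 arrangements, which cannot give a p below 0.0556. It was -31.1 points without the first WT library of day 0 and 5.06 points without the second, and the test did not separate the days.

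The other autosomal sites were called more often than isolated sites in every library. Their shares were 89.2% and 60.4% in WT at day 0 and 59.6% and 59.5% in K20R. At day 4 they were 69.8% and 70.2% in WT and 47.4% and 54.6% in K20R. Isolated sites were also counted per 1000 autosomal sites called in the same library. At day 0 this gave 15.8 and 13.5 in WT and 14.9 and 14.8 in K20R. The 2 WT lists of day 0 held 77657 and 52698 peaks, and the longer gave the higher number, so list length was not fully set aside. The day 4 values were 15.8 and 15.8 in WT and 13.3 and 12.8 in K20R, and these groups did not overlap. The K20R lists of day 4 were the shortest, with 41360 and 47463 peaks. The day 4 difference was -2.75 per 1000 (exact permutation p = 0.333, adjusted p = 0.667), and the day 0 difference was 0.212 per 1000 (exact permutation p = 1). The day 0 value was -0.955 without the second WT library and 1.38 without the first.

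**Figure D1:**
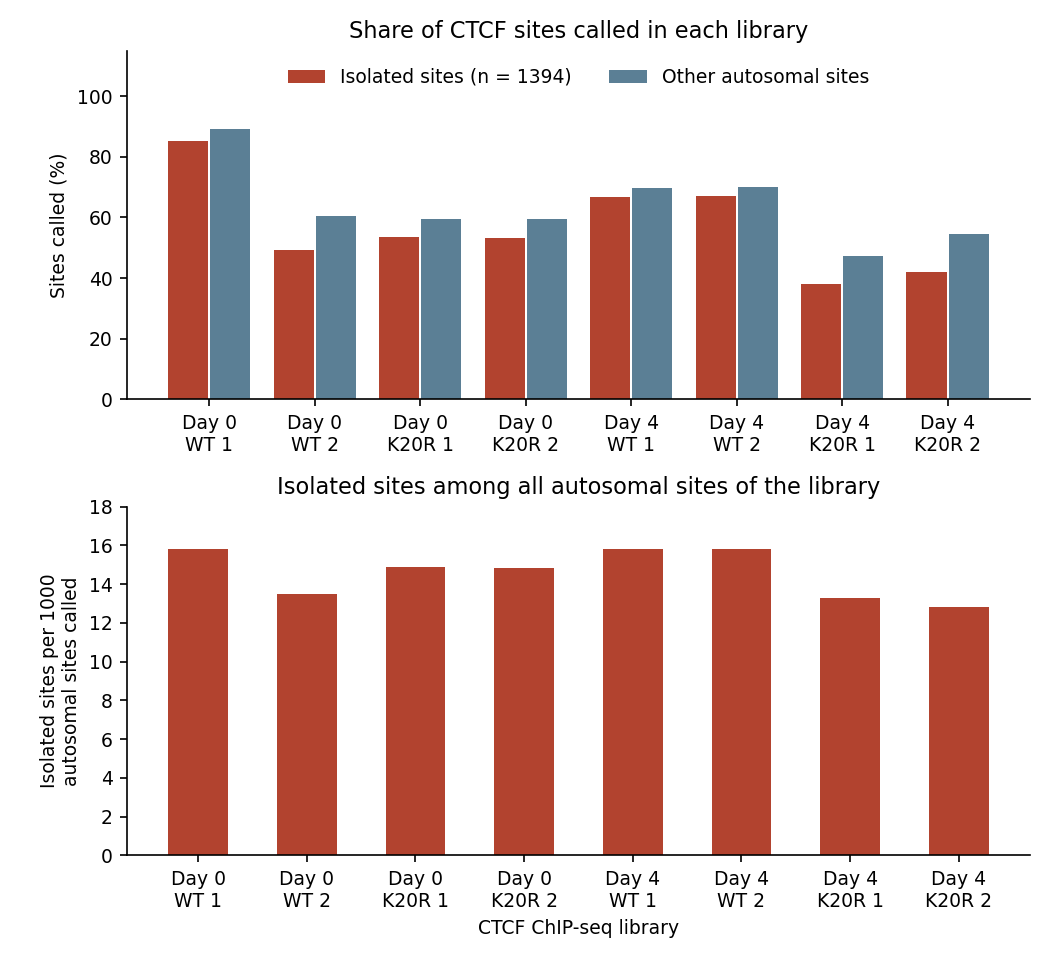
The upper panel plots, for each CTCF library, the percentage of the 1394 isolated sites and of the other autosomal sites that were called, and the lower panel plots isolated sites per 1000 autosomal sites called. At day 4 the K20R bars stand at 37.9% and 42.2% against 66.6% and 67.1% in WT, and at 13.3 and 12.8 per 1000 against 15.8 and 15.8.

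To make the lists equally long, each was also reduced to its 41360 strongest peaks by -log10 p, and the day 4 differences were then smaller. Under that rule 1781 sites were isolated, and the share called differed by -3.09 points between K20R and WT at day 4 and by 5.78 points at day 0. The number per 1000 differed by -1.27 at day 4 and by 2.65 at day 0.

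Isolated sites were called in all libraries less often than other sites. Of the 1394 members, 444 were called in all 8 libraries, or 31.9% (95% Wilson interval 29.5% to 34.3%). Of the other autosomal sites, 42.3% (42.0% to 42.7%) were. A single library called 345 members, or 24.7% (22.6% to 27.1%), against 20.7% of other sites. Of these 345 members, 219 came from the first WT library of day 0 alone, and 45 and 43 from the WT libraries of day 4. These intervals cover counting error over sites only, which share libraries and are not replicates.

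**Figure D2:**
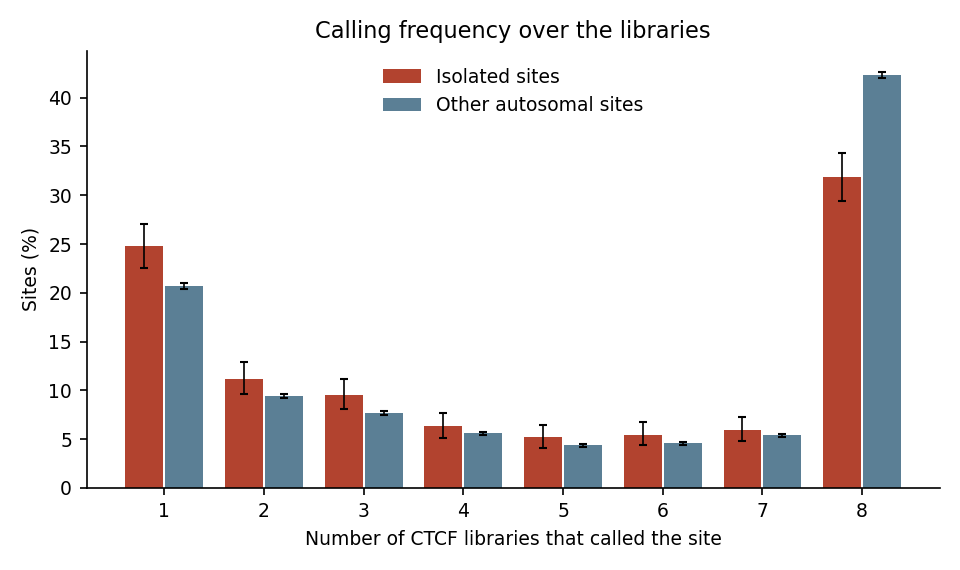
Bars give the percentage of isolated and of other autosomal sites called by 1 to 8 of the CTCF libraries, with 95% Wilson intervals. Isolated sites exceed other sites at 1 library (24.7% against 20.7%) and fall short of them at 8 libraries (31.9% against 42.3%).

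By genotype, 840 members (60.3%) were called in both genotypes, against 66.5% of other sites. WT libraries only called 523 members, or 37.5% (35.0% to 40.1%), against 31.1% of other sites, and K20R libraries only called 31, or 2.22% against 2.47%. At day 4, 534 members were called in more WT than K20R libraries, or 38.3% (35.8% to 40.9%) against 29.7% of other sites. The reverse held for 26, or 1.87% (1.28% to 2.72%) against 3.23%. At day 0 these counts were 462, or 33.1% against 31.8%, and 122, or 8.75% (7.38% to 10.4%) against 5.56%. All 4 WT libraries and no K20R library called 22 members, or 1.58% (1.04% to 2.38%), near the 1.43% of other sites. The reverse held for 0 of 1394 members, with a 95% Wilson interval up to 0.275%, and for 4 other sites.

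By day, 907 members were called on both days, or 65.1% (62.5% to 67.5%), against 71.5% of other sites. Day 0 libraries only called 338, or 24.2% (22.1% to 26.6%), against an interval of 20.7% to 21.3% for other sites. Day 4 libraries only called 149, or 10.7% (9.17% to 12.4%), against 7.45%. All 4 day 0 libraries and no day 4 library called 10 members, or 0.717%, near the 0.741% of other sites. The reverse held for 0 members and 34 other sites.

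A member is termed lost in K20R where both WT libraries of a day called it and neither K20R library did, and gained where the reverse held. At day 4, 243 members were lost among the 829 that both WT libraries had called, or 29.3% (26.3% to 32.5%). Over all autosomal sites the share was 18.8%, and over sites other than the isolated ones it was 18.6% (18.3% to 18.9%). A further 4 of 485 members were gained at day 4, against a background of 0.521%. At day 0, 49 of 667 members were lost, or 7.35% (5.60% to 9.58%), against a background of 7.72%. Gained members of day 0 were 5 of 658, against a background of 0.411%. The share lost at day 0 was thus near the background. The gained shares had intervals of 0.321% to 2.10% at day 4 and 0.325% to 1.77% at day 0, which held their backgrounds.

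Leaving out a library of day 4 gave 272 to 335 lost members at that day, or 32.8% to 39.1% of those that could be lost, against 20.7% to 28.0% of other sites. Day 0 rested on the second WT library. Without it, 400 of 1189 members were lost, or 33.6%, against 29.8% of other sites. In lists of one length, 103 of 1177 members were lost at day 4, or 8.75% (7.27% to 10.5%), against 5.57% (5.34% to 5.81%) of other sites, and 59 were gained.

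Day 4 losses were more frequent where sites lay farther apart. Among sites that could be lost, 17.4% were lost where the next site lay within 10 kb, and 25.9% at 50 to 100 kb. Among isolated sites, 28.5% were lost at 100 to 200 kb and 32.2% (25.8% to 39.4%) beyond 200 kb, where 177 sites could be lost. At day 0 the share was 7.89% within 10 kb and 6.47% (3.44% to 11.8%) beyond 200 kb.

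Peak strength and base composition moved with this difference. Strength was the percentile of a peak's fold enrichment within its list, averaged over both WT lists of day 4. Below the 20th percentile, 75.2% (67.4% to 81.6%) of isolated and 65.3% (64.2% to 66.4%) of other sites were lost. From the 20th to the 40th percentile, these shares were 48.0% (41.6% to 54.5%) and 38.2% (37.3% to 39.2%). From the 40th to the 60th they were 11.5% (7.94% to 16.3%) and 9.04% (8.53% to 9.58%). From the 60th to the 80th, 1 of 158 isolated sites was lost, and above it 0 of 74 were, with an interval up to 4.93%.

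Other sites were then weighted to have the isolated sites' distribution over 5 classes of a measure. Weighted by strength, 24.5% of other sites were lost, and weighted by GC within 100 kb, 25.7% were. Weighted by both, 28.5% of other sites were lost, against 29.3% of isolated sites. With GC within 500 bp in its place, the weighted share was 25.6%, and with the masked repeat share within 100 kb it was 26.0%. The part of strength and base composition in the losses was not tested beyond these values.

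**Figure D3:**
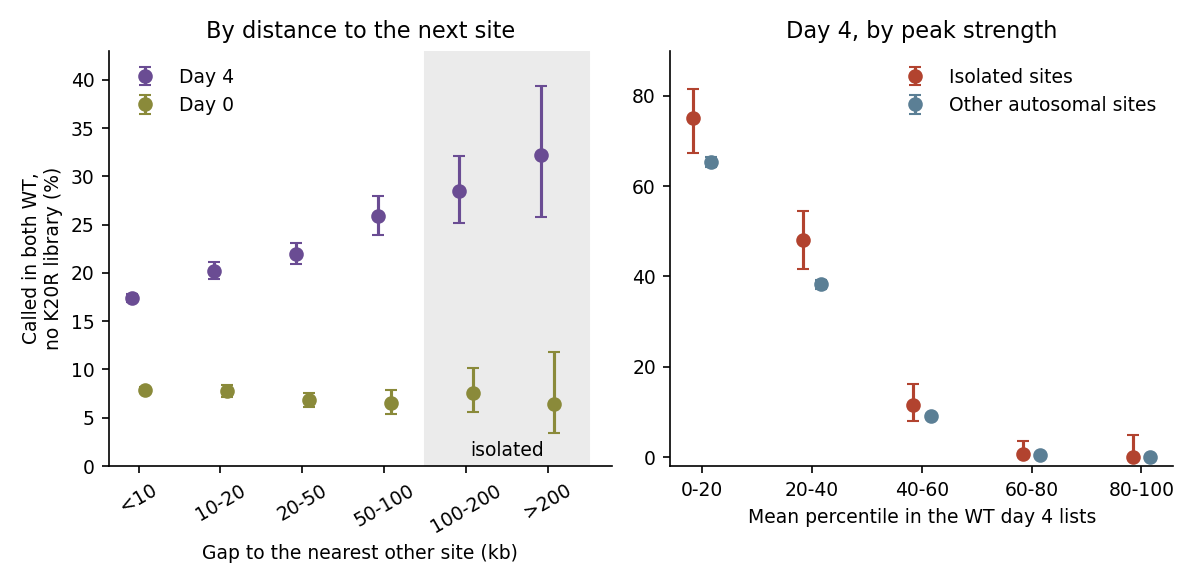
The left panel plots the percentage of sites called in both WT libraries that no K20R library called, by the gap to the nearest other site in kb, at each day; the right panel plots the day 4 percentage by mean percentile in the WT day 4 lists, with 95% Wilson intervals in both. The day 4 share goes from 17.4% within 10 kb to 32.2% beyond 200 kb, the day 0 share stays between 6.47% and 7.89%, and both site sets lie near 0 above the 60th percentile.

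The lost members were weak in WT, as were the other sites lost at day 4. The median of lost members was 12 reads at the summit in each WT library of day 4, and that of other lost sites was 11 and 12. The 476 members called in all 4 libraries of day 4 had medians of 30 and 30 reads in WT and of 21 and 29 reads in K20R. A motif was found at 63.0% (56.7% to 68.8%) of lost and 84.9% (81.4% to 87.8%) of these kept members. Among other sites these shares were 70.3% for lost and 89.6% to 90.3% (interval) for kept sites, a gap of the same direction.

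The calls of the 243 lost members at day 0 were near those of other lost sites. Both K20R libraries of day 0 called 54 of them, or 22.2% (17.5% to 27.9%), against 20.1% of other lost sites. Neither called 145, or 59.7% (53.4% to 65.6%), against 60.5%. The first WT library of day 0 called 189, or 77.8% (72.1% to 82.5%), against 81.8%, and both WT libraries called 80, or 32.9% (27.3% to 39.1%), against 37.3%. All libraries but those of K20R at day 4 called 37 members, or 2.65% (1.93% to 3.64%), against 1.81% of other sites.

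Members were also compared between days within each genotype. Of 658 members called in both K20R libraries of day 0, 104 were called in neither at day 4, or 15.8% (13.2% to 18.8%), against a background of 9.05%. Other sites weighted by strength and GC within 100 kb gave 13.3%. In WT, 30 of 667 members were lost from day 0 to day 4, or 4.50% (3.17% to 6.35%), against a background of 5.77%. Gains by day 4 were 58 of 829 in WT, an interval of 5.45% to 8.94%, against a background of 3.8%. Weighted by strength and GC within 100 kb, 5.79% of other sites were gained, inside that interval. In K20R they were 6 of 485, against a background of 1.2%. The WT counts turned on the day 0 libraries. Without the first WT library of day 0, 226 members were gained in WT, and without the second, 316 were lost.

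Isolated sites were weaker than other sites in every library. Their median percentile lay between 34.0 and 42.1 over the 8 libraries, and that of other sites between 50.7 and 51.2. The mean difference was -13.5 percentile points, lower in 8 of 8 libraries (exact sign-flip permutation p = 0.00781, the smallest that 8 libraries allow). The libraries share their sites, so this p describes the agreement among libraries and not a test over independent sites. Median reads at the summit were 16 to 22 at isolated sites and 24 to 36 at other sites.

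**Figure D4:**
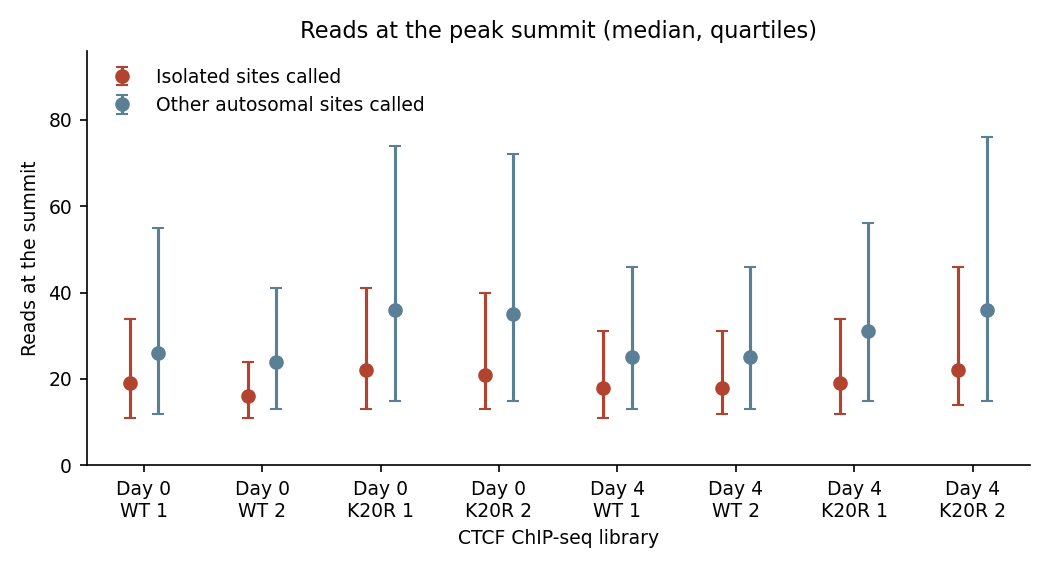
Points give the median number of reads at the peak summit for isolated and other autosomal sites called in each CTCF library, and bars span the quartiles. The isolated medians, from 16 to 22 reads, lie below those of other sites, from 24 to 36 reads, in every library.

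Members called in all 8 libraries were ranked among all such autosomal sites. Their median rank was 28.2 and 25.8 in WT and 30.8 and 29.3 in K20R at day 0, on a scale of 0 to 100. At day 4 it was 33.5 and 34.3 in WT and 33.8 and 29.2 in K20R, and the groups overlapped. The K20R minus WT difference was 3.06 at day 0 (exact permutation p = 0.333, adjusted p = 0.667) and -2.39 at day 4 (exact permutation p = 0.667). Without the second K20R library of day 4 the latter was -0.0636.

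A motif within 100 bp of the summit was found at 939 of 1394 members, or 67.4% (64.9% to 69.8%), against 76.6% (76.3% to 76.9%) of other sites. Sequences shifted by 1 kb passed the same threshold at 1.29% of isolated and 5.03% of other sites. Within the libraries, the motif share of called sites differed by -7.45 percentage points, lower at isolated sites in 8 of 8 libraries (exact sign-flip permutation p = 0.00781). A site has the same motif score in every library and the libraries share many sites. This p therefore describes the agreement among libraries and is not a test over independent sites. Members called in all 8 libraries had a motif in 85.8% of cases and those called in 1 library in 53.3%. Of member motifs, 34.8% (31.8% to 37.9%) lay in masked repeats, against 44.1% (43.7% to 44.5%) at other sites.

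Neighbouring sites were compared by motif strand where both passed a stricter motif score, which 1% of shifted sequences reached. Of 265 neighbour pairs that held an isolated site, 25.3% (20.4% to 30.8%) were convergent, 19.6% (15.3% to 24.8%) were divergent and 55.1% pointed the same way. Among 15331 other neighbour pairs, 22.8% (22.1% to 23.4%) were convergent and 24.7% (24.0% to 25.4%) divergent. The intervals of the convergent shares overlapped.

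The surroundings of isolated sites were poor in genes. Of the members, 67.4% (64.9% to 69.8%) were intergenic, against 39.9% of other sites, and 23.8% lay within a protein-coding gene, against 54.0%. The median distance to a protein-coding start was 287 kb, against 18.6 kb. No protein-coding gene started within 500 kb of 442 members, or 31.7% (29.3% to 34.2%), against 1.92% of other sites. The median number of protein-coding genes starting within 500 kb was 1 at isolated and 11 at other sites. Start sites of any gene lay within 3 kb of 153 members (9.44% to 12.7%) and of 24.6% of other sites.

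Median GC within 100 kb was 38.4% at isolated and 44.9% at other sites, and the masked repeat share was 39.5% and 28.9%. Assembly gaps lay within 100 kb of 1.51% of members and of 1.64% of other sites. By chromosome, the share of sites that were isolated ranged from 0.619% on chromosome 11 to 2.85% on chromosome 3. Chromosome 1 held the most members, 126, and chromosome 19 the fewest, 26.

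Neighbouring members formed chains in which each site had an isolated site as its next neighbour. Of the members, 550 stood alone between sites that were not isolated, and the rest lay in chains of 2 to 8. Some of the longest chains are named here after their values were seen. A chain of 8 over 2.30 Mb ran through Lingo2, a neuronal leucine-rich repeat gene, at chr4:35520747-37821301. The WT libraries called 6 and 2 of its sites at day 0 and 6 and 6 at day 4, and the K20R libraries called 5 and 5, then 2 and 2.

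Another chain of 8 lay among olfactory receptor genes, from Olfr889 to Olfr978 at chr9:38117715-39983989. WT libraries called 7 and 2 of its sites, then 3 and 4, and K20R libraries 2 and 3, then 3 and 3. Of the 7 sites near Tmeff2, at chr1:49116516-50030042, all 7 were called in the first WT library of day 0, 2 in each other WT and day 0 library, and none in K20R at day 4.

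The chain of 8 between Pik3c3 and Celf4 on chromosome 18 had 4 sites called in all 8 libraries. K20R libraries called all 8 of its sites at day 0 and 5 and 5 at day 4, and WT libraries called 7 and 6, then 8 and 6.

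Where isolated sites lay within protein-coding genes, the genes were long. The 332 such members lay in 254 genes with a median length of 416 kb, against 31.8 kb for the genes that held other sites. Cntnap2, a contactin-associated neuronal gene of 2245 kb, held 5 isolated sites among 23, and Magi2, which encodes a synaptic scaffold protein, held 5 among 19. All 4 CTCF sites in each of Cntnap5c, Lingo2 and Spag16 were isolated. Of the 4 sites in Spag16, 2 were called in all 8 libraries, and 1 was lost at day 4. Cntnap5c had 3 of 4 called in all 8 libraries and none lost. Hdac9, which encodes a class II histone deacetylase, held 2 isolated sites among 14, and both were lost at day 4. It was picked after its values were seen, and 29.3% of all isolated sites that could be lost were lost at that day.

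Gene families were counted at the gene that held a site or, failing that, at the nearest protein-coding gene. Cadherins and protocadherins, which join cells and mark neurons, had 71 members, or 5.09% (4.06% to 6.38%), against 0.523% of other sites. Only 6 of these 71 lay within a gene of the family, and for the rest such a gene was the nearest, at any distance. Of the 71, 20 were called in all 8 libraries, and 15 were lost among the 44 that both day 4 WT libraries called. Counted in this way, Pcdh9 led with 8 sites, followed by Pcdh7 with 7 and Cdh6 and Cdh8 with 6 each.

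Olfactory receptor genes had 32 members, or 2.30% (1.63% to 3.22%), against 0.448% of other sites, and each was counted at a different gene. Of the 14 called in both WT libraries of day 4, 1 was lost. Vomeronasal receptor genes, which detect pheromones, had 19 members, or 1.36% (0.874% to 2.12%), against 0.130%, and 4 of 9 were lost. Contactins and contactin-associated genes had 27, or 1.94% (1.33% to 2.80%), against 0.159%, and 4 of 18 were lost. Potassium channel genes had 24, or 1.72% (1.16% to 2.55%), against 0.668%, and 5 of 16 were lost. Leucine-rich repeat adhesion genes had 22, or 1.58% (1.04% to 2.38%), against 0.131%, and 1 of 12 was lost. Semaphorin and slit-robo genes, which guide axons, had 20, or 1.43% (0.931% to 2.21%), against 0.224%, and 2 of 13 were lost. Over all isolated sites 29.3% were lost, and these family counts are too small to be read against it.

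Ephrins and their receptors had 18 members, or 1.29% against 0.168% of other sites, and glutamate receptors had 14, or 1.00% against 0.277%. Teneurins had 10, or 0.717% against 0.113%, and the sushi domain genes Csmd1 and Csmd3 had 5, or 0.359% against 0.0868%. Not all families were over-represented. Zinc finger genes had 19 members, or 1.36% (0.874% to 2.12%), against 1.71% (1.63% to 1.80%) of other sites. Sox, Fox, Hox and T-box transcription factors had 8, or 0.574% (0.291% to 1.13%), against 0.738% (0.682% to 0.798%). The 2 defensin members were too few to compare. The number of members within a gene of their family varied. It was 7 of 32 for olfactory receptors, 7 of 24 for potassium channels and 2 of 18 for ephrins. For contactins it was 15 of 27, and for glutamate receptors 10 of 14. The members were selected on spacing, so these shares describe where such sites lie and were not tested.

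**Figure D5:**
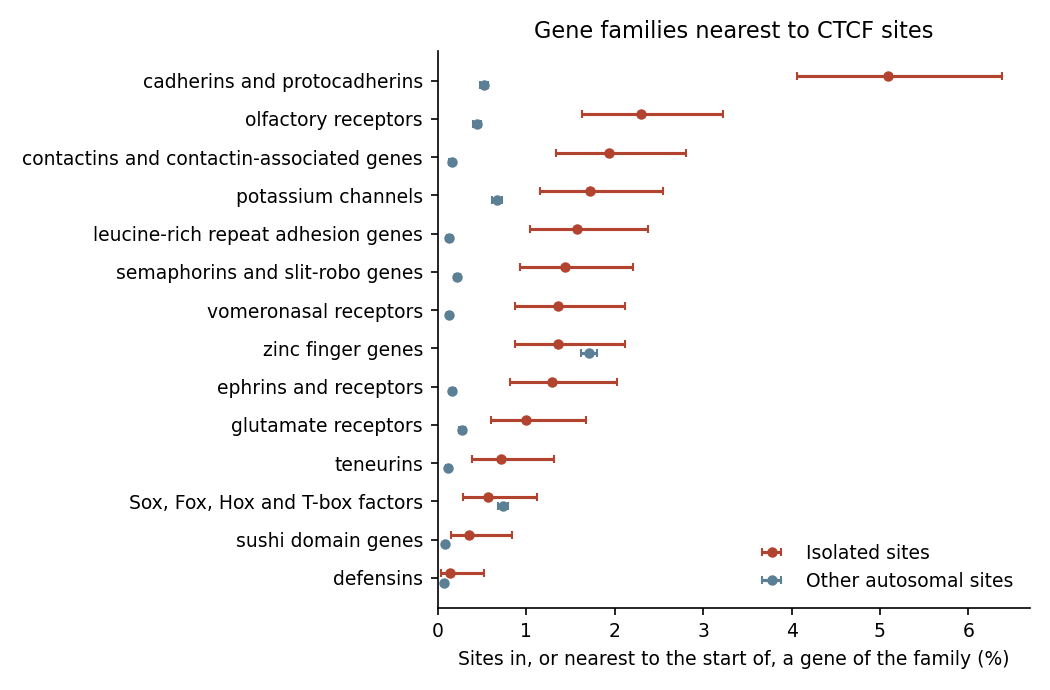
Points give the percentage of isolated and of other autosomal sites that lie in, or nearest to the start of, a gene of each family, with 95% Wilson intervals. Cadherins and protocadherins stand at 5.09% of isolated and 0.523% of other sites, while the intervals overlap for zinc finger genes, for Sox, Fox, Hox and T-box factors and for defensins.

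The strongest member called in all 8 libraries lay at chr13:71458260-71458853, 505 kb from Irx1, which encodes a homeobox factor. It had 109 and 92 reads in WT and 153 in the second K20R library at day 0, and 84 and 83 in WT and 95 in the first K20R library at day 4. In the remaining K20R libraries its -log10 p passed 300, at which reads could not be derived. Its percentile was between 98.1 and 99.8 in every list, with all groups at the top of their lists.

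The site near St3gal1, a sialyltransferase gene, at chr15:67434106-67434648, had 97 and 66 reads in WT and 131 and 143 in K20R at day 0. The reads of day 4 were 93 and 96 in WT and 117 and 149 in K20R. Reads were higher in K20R than in WT on both days and overlapped between days. This direction was not particular to the site. Among other sites called in all 8 libraries, the upper quartiles at day 0 were 75 and 48 reads in WT and 88 and 86 in K20R. At day 4 they were 57 and 57 in WT and 59 and 89 in K20R. Its percentiles were 83.8 to 93.6 at day 0 and 97.5 to 99.8 at day 4, within lists of different length.

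In an intron of Lmo3, a LIM-only transcription cofactor gene, the site at chr6:138477477-138477976 had 89 and 79 reads in WT and 132 and 129 in K20R at day 0. The day 4 reads were 93 and 90 in WT and 91 and 148 in K20R, and the genotypes overlapped. Its percentiles ran the other way, from 98.0 to 99.4 over the WT lists and from 78.8 to 97.4 over the K20R lists, so the reads and the ranks give no common direction.

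Near Mup16, a major urinary protein gene, the site at chr4:61555845-61556252 had 123 and 73 reads in WT and 161 and 171 in K20R at day 0. On day 4 the reads were 99 and 101 in WT and 86 and 104 in K20R, and the genotypes overlapped. Its percentiles were 97.5 to 99.9 in the WT lists and 78.3 to 93.5 in the K20R lists, so here too reads and ranks gave no common direction. The nearest site on its left lay 1081 kb away. The site near Cbln2, which encodes a secreted synapse organiser, lay between the 87.9 and 98.8 percentile in all 8 lists. The site near Slc7a12, an amino acid transporter gene, at chr3:14381206-14382071, ranged from the 68.6 percentile in the first K20R library of day 4 to 97.3 in the second WT library of day 0. Its reads in those libraries were 55 and 74, and over all libraries 55 to 126.

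The strongest members lost at day 4 lay between the 48.5 and 62.7 percentile in the WT lists of that day. At chr13:80295719-80296082, 587 kb from Arrdc3, an arrestin-domain gene, both WT libraries of day 4 had 27 reads. At day 0 this site was called in all 4 libraries, with 38 and 11 reads in WT and 11 and 13 in K20R. The site in an intron of Plxna4, which encodes a semaphorin receptor, at chr6:32479283-32479644, had 40 and 34 reads in WT at day 4 and 9 and 12 at day 0. No K20R library called it on either day.

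The site near Gm6685, a predicted gene, at chr11:28020728-28021105, had 26 and 26 reads in WT at day 4, 20 and 16 in WT at day 0, and 10 in the second K20R library of day 0 alone. Near Cox7c, a cytochrome c oxidase subunit gene, the site at chr13:85988688-85988948 had 26 and 25 reads in WT at day 4 and no motif. It was called at day 0 in the first library of each genotype, with 17 reads in WT and 10 in K20R. The site near Slc16a7, a monocarboxylate transporter gene, at chr10:125114310-125114647, had 25 and 20 reads in WT at day 4. At day 0 it had 30 and 19 in WT and 20 in the first K20R library. Each of these 5 sites was thus called in at least 1 WT library of day 0, and 4 of the 5 in at least 1 K20R library of that day.

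Of the strongest members lost at day 0, those near Gm3248 (chr14:5969337-5969545) and Sec23a (chr12:58638279-58638579) were called in all 4 WT libraries and in no K20R library. Sec23a encodes a COPII vesicle coat protein. Their reads at day 0 were 28 and 15 for the first and 17 and 12 for the second. The site near Ugt8a, a gene of myelin lipid synthesis, at chr3:126011248-126011592, had 20 and 13 reads in WT at day 0 and was absent from both K20R lists. At day 4 it was called in all 4 libraries, with 23 and 14 reads in WT and 12 and 12 in K20R.

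The strongest members gained at day 4 were near Klf6 (chr13:5694491-5694981), Lrrn1 (chr6:107211443-107211758) and Gm12728 (chr4:105713499-105713766). Klf6 encodes a Kruppel-like factor, and Lrrn1 a neuronal leucine-rich repeat protein. The K20R libraries of day 4 had 14 and 17 reads at the first, 10 and 13 at the second, and 8 and 13 at the last. The Klf6 and Lrrn1 sites were called in all 4 libraries of day 0, so only the WT libraries of day 4 lacked them. At day 0 the strongest gained members were near Gm21863 with 11 and 19 reads in K20R, near Gm10772 with 11 and 16, and near Fam135b with 10 and 7.

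H3K27ac is found at active promoters and enhancers, and few isolated sites overlapped it at day 4. In WT 45 members overlapped a peak, or 3.23% (2.42% to 4.29%), against 12.2% of other sites. In K20R 47 did, or 3.37% (2.54% to 4.45%), against 15.0%, and 38 did in both. With 1 library per genotype these counts have no replicate check. Of the 243 members lost at day 4, 3 overlapped H3K27ac in WT (1.23%) and 1 in K20R (0.412%). Of the 476 members called in all 4 libraries of day 4, 2.73% and 3.36% did, and the intervals of lost and kept members overlapped. Among other lost sites, the shares were 9.34% in WT and 10.5% in K20R. Among other kept sites, they were 11.7% to 12.3% (interval) in WT and 15.6% in K20R. Lower overlap at lost sites was thus also seen outside the isolated set.

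The 5 strongest members with H3K27ac in both genotypes were called in all 8 libraries. The site at chr15:39217096-39217590 lay in an intron of Rims2, which encodes a protein of the presynaptic active zone. It had 53 and 29 reads in WT and 59 and 58 in K20R at day 0, and 38 and 41 in WT and 39 and 60 in K20R at day 4. The site at chr16:6685966-6686411, in an intron of the splicing regulator gene Rbfox1, had 52 and 26 reads in WT and 53 and 58 in K20R at day 0. Its reads at day 4 were 26 and 35 in WT and 25 and 45 in K20R. Genotypes overlapped at day 4 at both sites.

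The site at chr1:44551344-44551954 lay 0.052 kb from the start of Gulp1, which encodes an engulfment adaptor, and overlapped an exon. It had 48 and 47 reads in WT and 30 and 73 in K20R at day 4. Near Olfr726, a site in an exon of Gm37194 (chr14:50062448-50062969) had 42 and 38 reads in WT and 25 and 17 in K20R at day 0. Its day 4 reads were 26 and 27 in WT and 13 and 16 in K20R, so K20R lay below WT on both days, in its percentiles as well (20.1 to 39.8 over the K20R lists and 44.8 to 83.5 over the WT lists). The site 1.04 kb from Setbp1 had 24 and 22 reads in WT and 12 and 23 in K20R at day 4, and no motif.

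The most isolated sites were called rarely. The site with gaps of 779 and 852 kb lay near Skint6, of a family that selects epithelial T cells, at chr4:113448381-113448551. It was called only in the second K20R library of day 0, with 13 reads. The second, near Edil3, an extracellular matrix gene, at chr13:88067244-88067481, had 7 and 9 reads in WT at day 0 and 12 in the second WT library of day 4. The sites near Gm5096, Skint2, Gm10330 and Speer2 were called in 3, 2, 4 and 1 libraries. None of these 6 sites was called in all 8 libraries, and 3 of the 6 had a motif.

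The members farthest from any protein-coding start were 3 sites beyond Pcdh9, a protocadherin gene, on chromosome 14, at 2626, 2381 and 2201 kb. The second of them, at chr14:91507204-91507534, was called in all libraries but the second of K20R at day 4. Its reads were 31 and 12 in WT and 26 and 20 in K20R at day 0, and 14 and 13 in WT and 8 in K20R at day 4. The other two were each called in 1 library. None of the 3 had a motif, and all 3 summits lay in masked repeats. Next came 2 sites on chromosome 18, 2195 kb from Pik3c3, a lipid kinase gene, and 2083 kb from Celf4, an RNA-binding protein gene. Both were called in all 8 libraries and had a motif, and at day 4 they had 26 and 21 reads and 30 and 38 reads in WT, against 15 and 24 and 12 and 24 in K20R.

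Sites near the 100 kb limit were alike in kind on both sides. Just inside it were sites in introns of Zfhx3, Iqcm and Fars2, with smaller gaps of 100.021, 100.078 and 100.104 kb, called in 2, 8 and 5 libraries. Just outside it were sites in an intron of Fat4 and near Csmd3, with 99.985 and 99.917 kb, called in 1 and 8 libraries.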

How the data were processed

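Per the study's methods, the authors trimmed reads with Trim Galore, aligned them to mm10 with Bowtie2, removed poorly mapped, duplicate and blacklisted reads, subsampled the CTCF libraries to one depth and called peaks per library with MACS2. The input set against each library is not given in the sources used here. The deposited lists give each peak's position, fold enrichment (a ratio to local background), −log10 p and −log10 q values by the authors, and no read counts per site. Of 14 samples, 4 input libraries were not analysed here. The members and lists were chosen with earlier results of these data known. A site counted as called where its interval held a peak of that library, and a site not called has no value.

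Reads at a summit were solved from fold enrichment and −log10 p, within 0.01, for −log10 p below 300. The motif was learned on 1980 of the strongest WT day 0 peaks, and a match passed the score that 5% of sequences shifted by 1 kb reached. Genes came from GENCODE M21 basic, and GRCm38 masking marked repeats. Groups were compared by two-sided exact permutation tests over libraries with Benjamini-Hochberg adjustment, and these p-values measure only the spread between the 2 replicates of a group. The genotype effect was compared between days by permuting genotype labels within day. Sign-flip tests of isolated against other sites used the 8 per-library differences and measure only their agreement. Shares carry 95% Wilson intervals. Named sites were the most isolated (6), the strongest called in all 8 libraries (6), the strongest lost (5 at day 4, 3 at day 0), gained (3 each day) and with H3K27ac (5), the farthest from a coding start (5), and 3 on each side of the limit. One site outside the limit and one chain of sites are not reported here. The steps were tested on simulated data. Alternatives were other isolation limits, a −log10 q of at least 5, windows of 201 bp around summits, lists of one length, removal of chromosomes 8 and 14 or of single libraries, a replicate block, other motif and H3K27ac settings, and strength by −log10 p. The weighting by strength, GC and repeats was added after seeing the data. Software was matplotlib 3.10.9, scipy 1.17.1 and pandas 2.3.3 with numpy 2.4.6, under Python 3.11.15.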

Additional observations from a re-analysis of the deposited data

How the results depend on the processing

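Over all results and alternatives, 247 values were labelled the same, 53 moved and 8 reversed. For differences between groups or between site sets, the label rested on direction and on the side of the test's threshold. With 2 libraries a group, the exact permutation tests could not cross that threshold. Counts of sites and the excess in lost share were labelled by the size of their change. The lower strength and lower motif share of isolated sites kept their direction under every alternative run. The day 4 difference in the share called stayed negative under every alternative run, but was -3.09 points with lists of one length. Leaving out 1 library at a time, the K20R minus WT share at day 0 ranged from -31.9 to 4.30 points, the WT day 4 minus day 0 share from -18.4 to 17.7, the genotype effect at day 4 minus day 0 from -31.1 to 5.06, and the day 0 difference per 1000 sites from -0.955 to 1.38. The WT difference between days was also 0.804 points at a 50 kb limit, 0.429 at a −log10 q of at least 5 and 6.23 with lists of one length, where the K20R minus WT share at day 0 was 5.78. The cause was not tested.

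An isolation limit of 50 kb gave 4231 sites, of which 711 were lost and 9 gained in K20R at day 4, and 144 lost and 17 gained at day 0. Between days, 105 were lost and 167 gained in WT, and 280 lost and 18 gained in K20R. At 200 kb there were 321 sites by construction, with 57 lost and 2 gained at day 4 and 9 lost and 3 gained at day 0, and between days 7 lost and 9 gained in WT and 27 lost and 1 gained in K20R. Lists of one length gave 103 lost and 59 gained at day 4, 31 lost and 79 gained at day 0, 71 lost and 140 gained between days in WT, and 43 gained in K20R. Without single libraries, day 4 gains ranged from 4 to 13, day 0 losses from 49 to 400 and gains from 5 to 87, WT losses between days from 30 to 316 and gains from 58 to 226, and K20R losses from 104 to 175 and gains from 6 to 32. H3K27ac peaks with a −log10 q of at least 5 overlapped 24 isolated sites in WT and 21 in K20R.

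The day 4 loss of isolated sites exceeded that of other sites by 10.7 points. It exceeded it by 3.18 points with lists of one length. After weighting the other sites, a choice added after seeing the data, the excess was 4.84 for strength, 3.64 for GC within 100 kb, 7.51 for GC within 500 bp, 0.84 for strength and GC within 100 kb, 3.76 for strength and GC within 500 bp, and 3.33 for strength and repeats.

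The labels do not show that equal replicate numbers pair samples. With a replicate block the differences kept their values, with an exact sign-flip permutation p of 0.5, the smallest for 2 pairs, for the day 4 share (-26.8), the day 4 number per 1000 (-2.75), the K20R share between days (-13.4) and the day 0 rank (3.06), and of 1 for the others.

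With 2 libraries a group, the smallest exact permutation p was 0.333. Peak lists hold no value for a site that was not called, so absence from a list is not absence of binding. Day 0 counts rest on which WT library is used.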
